A study of Mus musculus with 8 samples.

Results

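The genes described here encode the machinery that imports proteins into mitochondria, the factors that fuse and divide these organelles, and the chaperones and proteases that fold and remove their proteins. The 38 genes were taken by symbol, by a rule that names fusion, fission, import, chaperone and protease genes and uses no measured value, out of 24341 genes listed in each library. All 38 were found and all 38 passed the filter on low values, as did 11096 genes in all. The tissue was tibialis anterior, a muscle of the lower leg made mostly of fast fibres, taken from 8 chow-fed mice aged 12 weeks that the labels give as male. In the 4 knockout mice (Carm1 skm-/-), floxed Carm1 was combined with the HSAcre transgene (Tg/0), in which the human skeletal actin promoter drives Cre in muscle fibres. The 4 control mice (Carm1 skm+/+) carried floxed Carm1 and no Cre (HSAcre 0/0). Carm1 encodes an arginine methyltransferase that acts as a transcriptional coactivator. The floxed alleles are shared by both groups, and Cre and the deletion go together in every knockout library. The comparison asks how these genes differ in muscle with and without fibre Carm1.

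Most mitochondrial proteins are made in the cytosol and cross the outer membrane through the translocase of the outer membrane (TOM). From there, small Tim proteins guide hydrophobic precursors across the space between the membranes, and translocases of the inner membrane (TIM22 and TIM23) insert them or pass them to the matrix, where Hspa9 pulls them in and Hspd1 with Hspe1 folds them. In muscle, mitofusins and Opa1 fuse neighbouring mitochondria, while Dnm1l, recruited by Fis1, Mff, Mief1 and Mief2, divides them. The ATP-dependent proteases Yme1l1, Afg3l2, Spg7, Lonp1 and Clpp with Clpx remove damaged or surplus proteins, and Oma1 cleaves Opa1 under stress.

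Starts of 4 member genes are shown because these genes carry the largest differences described below or share a control region. RefSeq windows (GRCm38.p6, 250 bases before to 50 after the start) were matched for 35 of the 38 genes by symbol, all except Afg3l2, Tomm7 and Hspa9. Capitals mark matches, on either strand, to the NRF-1 motif (10 letters, 1 of them free), to that of the estrogen-related receptors (AAGGTCA), to that of GABP (ACCGGAAG) or to the CCAAT box (CCAAT). These motifs do not overlap each other in the windows shown. NRF-1, GABP and the estrogen-related receptors are known as regulators of nuclear genes for mitochondrial proteins. The window of Mfn1 lies at chr3:32529232-32529531 on the plus strand, that of Timm17a at chr1:135313688-135313987 on the minus strand, that of Timm8b at chr9:50603651-50603950 on the plus strand and that of Hspe1 at chr1:55087898-55088197 on the plus strand.
Mfn1: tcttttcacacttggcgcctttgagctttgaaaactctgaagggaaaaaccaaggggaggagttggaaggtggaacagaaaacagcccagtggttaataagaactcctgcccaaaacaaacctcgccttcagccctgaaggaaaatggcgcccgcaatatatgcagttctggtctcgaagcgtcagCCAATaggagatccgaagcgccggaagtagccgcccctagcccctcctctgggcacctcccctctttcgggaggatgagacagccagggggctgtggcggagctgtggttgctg
Timm17a: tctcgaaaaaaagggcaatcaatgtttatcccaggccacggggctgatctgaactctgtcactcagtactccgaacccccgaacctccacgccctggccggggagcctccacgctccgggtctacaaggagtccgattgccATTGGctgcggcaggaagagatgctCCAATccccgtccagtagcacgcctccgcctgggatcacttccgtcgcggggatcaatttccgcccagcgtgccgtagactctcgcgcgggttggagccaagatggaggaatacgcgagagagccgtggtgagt
Timm8b: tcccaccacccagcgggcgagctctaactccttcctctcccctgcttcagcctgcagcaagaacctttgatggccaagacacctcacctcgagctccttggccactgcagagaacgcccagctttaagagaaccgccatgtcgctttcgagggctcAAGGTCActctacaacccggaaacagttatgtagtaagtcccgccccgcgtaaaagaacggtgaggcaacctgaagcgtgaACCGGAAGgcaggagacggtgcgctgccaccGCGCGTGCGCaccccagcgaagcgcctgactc
Hspe1: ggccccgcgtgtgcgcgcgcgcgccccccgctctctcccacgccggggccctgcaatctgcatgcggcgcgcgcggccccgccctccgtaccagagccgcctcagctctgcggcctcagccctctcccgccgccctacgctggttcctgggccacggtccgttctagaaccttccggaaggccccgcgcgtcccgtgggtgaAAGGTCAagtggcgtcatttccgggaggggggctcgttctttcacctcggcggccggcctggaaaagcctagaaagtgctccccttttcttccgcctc

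The windows of Mfn1 and Timm17a held only CCAAT boxes, 1 and 2, among these motifs. That of Timm8b held 1 match each to the NRF-1, estrogen-related receptor and GABP motifs. The Hspe1 window is shown for a second gene as well: Hspd1 is transcribed in the opposite direction from a listed start 216 bases away, so the pair, chaperonin and co-chaperonin, share this region and its 1 match to the receptor motif. Another listed start of Hspd1, at 55088243, lies past the Hspe1 start (distance -95 bases) and outside this window. Over all 42 windows of the 35 genes, the NRF-1 motif was found in 8 (19.0%), against 4.60% of the 32851 windows in the table. The genes were Opa1, Oma1, Spg7, Hspd1, Tomm20, Timm8b, Immt and Phb. The receptor and GABP motifs were each found in 5 windows (11.9%), against 4.72% and 2.30% of all windows, and the CCAAT box in 18 (42.9%), against 37.4%. The background is all 32851 windows, whatever the level or base composition of the gene, and these differences in share were not tested. A match is a run of letters and not a measured binding site.

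The library values are FPKM (fragments per length of transcript, relative to all mapped fragments), scaled between libraries, so they are per length and can be compared between genes. The targeted gene Carm1 had no overlap between groups, with 30.5 ± 4.82 scaled FPKM for controls and 15.4 ± 2.57 for knockouts (mean ± SD, n = 4 each; exact permutation p = 0.0286, 2-sided, the smallest that 70 assignments can give). Xist, the RNA of the inactive X chromosome of females, reached 19.6 FPKM in control 1, 22.9 in knockout 2 and 20.5 in knockout 4, and at most 0.0662 elsewhere. These 3 libraries lacked the Y-linked Eif2s3y (at most 0.112 FPKM, against at least 42.3 in the others) and held the most Myh2, the type IIa myosin (764 to 1540 FPKM, against at most 167). Values with Xist as a covariate, or without these libraries, are given for part of the genes, those described in most detail among them. Of 8 muscle fibre markers, 5 had a usable estimate in every library, with summed levels of 13564 to 18664 scaled FPKM in controls and 12075 to 15960 in knockouts. The summed endothelial markers lay at 298 to 341 in controls and 248 to 332 in knockouts, and those of smooth muscle and pericytes at 248 to 372 and 233 to 279. Fibro-adipogenic markers lay at 265 to 545 and 219 to 394, and those of adipocytes at 891 to 1120.5 and 663 to 1023. Macrophage markers lay at 28.8 to 51.3 and 21.2 to 45.4, and those of Schwann cells at 47.8 to 77.3 and 48.2 to 63.3. Blood markers lay at 173 to 297 and 191 to 418, and those of tendon at 33.7 to 83.5 and 47.0 to 118. The ranges of the groups overlapped for every list, in part through a single library. For smooth muscle and pericytes that was control 2, at 248, with the other controls at 335, 372 and 361. For adipocytes it was knockout 4, at 1023, with the other knockouts at 663, 830 and 840. Of the adipocyte markers 3 of 7 passed the filter on low values, and of the blood markers 3 of 6. In whole muscle, fewer cells of a type and less RNA per cell cannot be told apart, and the part of these cells in the values below was not tested.

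None of the 38 genes passed the test between genotypes (limma, adjusted p under 0.05 over all genes), a call made for 0.360% of the 11096 genes tested, 0.198% higher and 0.162% lower. The smallest adjusted p was 0.206, for the mitofusin gene Mfn1. At an unadjusted p under 0.05 stood 4 members (10.5%), 1 higher and 3 lower, against 13.1% of all genes, 7.03% higher and 6.07% lower. These were Mfn1, higher, and Timm17a, Timm8b and Timm50, lower. With presence of Xist as a covariate, again no member passed, at a background of 2.01%, and 5 stood at an unadjusted p under 0.05, against 18.6% of all genes. These 5 were Mfn1, Timm17a, Timm8b, Timm23 and Opa1, so that Timm23 and Opa1 were gained and Timm50 was lost. The values of control and knockout libraries did not overlap for 2 members (5.26%), Mfn1 (higher) and Timm17a (lower), against 8.31% of all genes tested, 4.67% higher and 3.64% lower. In the fit without covariates 23 members were lower and 15 higher in the knockout (60.5% lower, against 50.5% of all genes tested). This balance turned with the scaling: 11 were lower and 27 higher without scaling, 17 and 21 with quantile normalization, and 19 and 19 with trends on length, base composition and level taken out. In the fit without covariates the median log2 difference was -0.05 for the members and -0.00210 for all genes tested. The median size of a difference, regardless of sign, was 0.08 and 0.11. Without scaling the median log2 differences were 0.04 and 0.07, so the median of all genes moved up as well. The scaling itself sets the median of all genes near 0.

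The intervals given here are those of single genes in the fit without covariates. They do not cover the choice of scaling or covariate. Mfn1 moved from 0.31 to 0.40 without scaling, and Opa1 from -0.07 to -0.20 with Xist as a covariate. The 95% interval of the log2 difference lay within -0.5 to 0.5 for 37 of the 38 genes and within -1 to 1 for all 38, the exception at the narrower bound being Mfn1, whose upper limit was 0.52. For 34 of 38 the interval included 0. In the fit without covariates the difference was smaller than its own standard error for 26 genes, where it lay between -0.12 and 0.11, and the standard errors ranged from 0.06 (Timm22) to 0.20 (Yme1l1). The plot of differences by role shows all 38 estimates between -0.23 and 0.31.

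**Figure D1:**
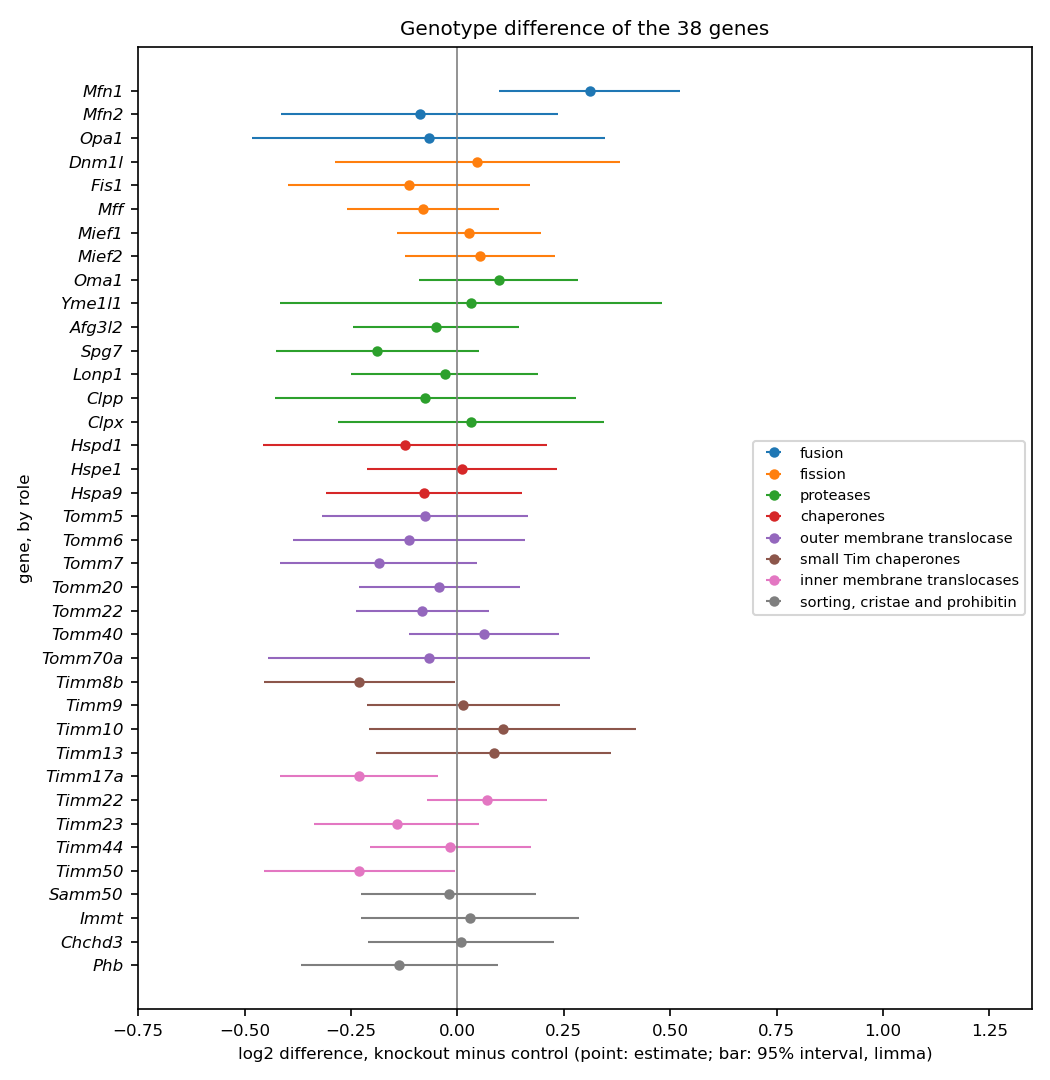
Log2 difference between knockout and control (x axis) for each of the 38 genes (y axis, grouped and coloured by role), with points for the limma estimate and bars for the 95% interval over 4 libraries per group. Estimates lie between -0.23 and 0.31, and 34 of the 38 intervals include 0.

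The genes spanned a wide range of levels in this muscle. The most abundant transcripts were Chchd3, a subunit of the complex that shapes the cristae, with a mean over the 8 libraries of 397 scaled FPKM, and Timm8b at 351. Hspa9, the motor chaperone of import, followed at 238, then the fission adaptor Fis1 at 208, the TIM23 channel subunit Timm17a at 196, the cristae organiser Immt at 188 and Samm50, which inserts barrel proteins into the outer membrane, at 184. The least abundant were Mief1, a receptor for Dnm1l, at 6.10, and Tomm20, a receptor of the outer membrane, at 10.9. In every library 36 of the 38 genes stood at 10 scaled FPKM or more. Members of one machine differed widely in level: the receptor Tomm22 stood at 80.4 and the channel protein Tomm40 at 33.2, while Tomm70a, a receptor for carrier precursors, stood at 22.3. The paralogous receptors for Dnm1l differed as well, Mief2 at 62.8 against 6.10 for Mief1. The coefficient of variation over the 8 libraries had a median of 10.2% for the members and 14.5% for all genes tested, and ran from 3.60% for Timm22 to 21.9% for Yme1l1.

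**Figure D2:**
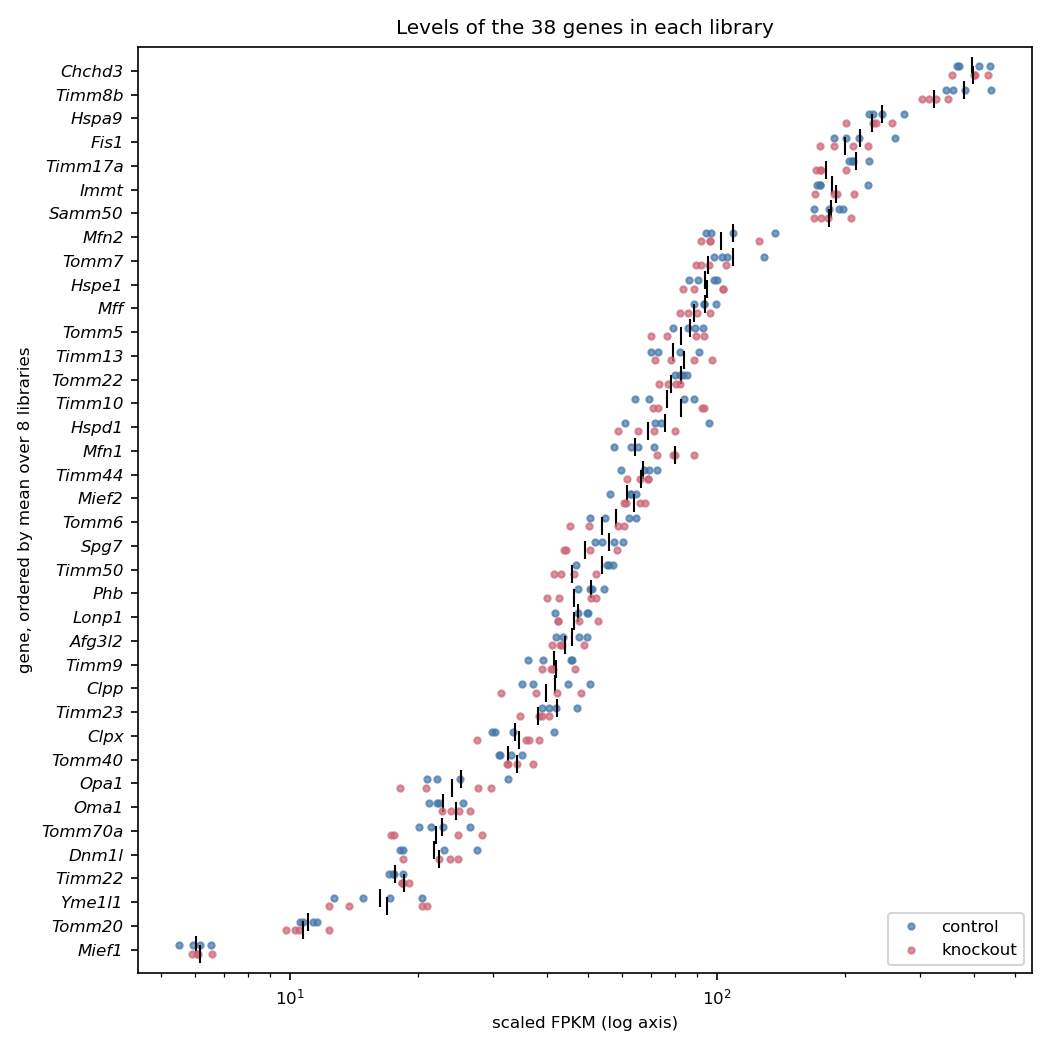
Scaled FPKM (x axis, log scale) of each gene (y axis, ordered by mean level) in the 4 control and 4 knockout libraries, with a point per library and a vertical tick at each group mean. Means run from 6.10 for Mief1 to 397 for Chchd3, and control and knockout points overlap for all genes but Mfn1 and Timm17a.

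Of the 3 fusion genes, Mfn1, a GTPase that tethers outer membranes, had the smallest p. It was at 71.3, 62.8, 57.5 and 65.5 scaled FPKM in control 1 to 4 and at 72.6, 88.6, 79.7 and 78.8 in knockout 1 to 4. Every knockout value lay above every control value, though control 1 and knockout 1 differed little. The log2 difference was 0.31 (SE 0.09, 95% interval 0.10 to 0.52; limma, unadjusted p = 0.00912, adjusted p = 0.206), from 64.3 ± 5.76 to 79.9 ± 6.59 (mean ± SD, n = 4 each). It was 0.27 with Xist as a covariate (limma, adjusted p = 0.123), 0.29 in the 5 libraries without Xist and 0.34 once trends on length, base composition and level were taken out (limma, adjusted p = 0.0828). Over all 19 alternative settings it stayed between 0.24 and 0.40, with adjusted p-values of 0.0828 to 0.424. The files place it at 32529482 to 32579225 of chromosome 3 (mm10), where it shares its locus with no other listed gene.

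Mfn2, the second mitofusin, which also ties mitochondria to the endoplasmic reticulum, was at 109 ± 19.3 scaled FPKM in controls and 102 ± 15.4 in knockouts. Its highest values were in control 1, at 137, and knockout 2, at 125, and the other 6 libraries lay between 91.7 and 109. Opa1, the fusion GTPase of the inner membrane, was at 25.1 ± 5.18 in controls and 24.1 ± 5.44 in knockouts. For both the log2 difference was under its standard error in the fit without covariates, at -0.09 (SE 0.14) for Mfn2 and -0.07 (SE 0.18) for Opa1. With Xist as a covariate it was -0.17 (SE 0.10) for Mfn2 and -0.20 (SE 0.08) for Opa1 (limma, adjusted p = 0.423 and 0.243). The 95% intervals of both, without the covariate, overlapped that of Mfn1, and the differences between these genes were not tested. The tables give 1 value per gene, so the splice forms of Opa1 were not resolved.

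None of the 5 fission genes passed the test, with log2 differences from -0.11 to 0.05. Mff, the outer membrane anchor of Dnm1l with the smallest p of this role, was at 99.4, 93.4, 88.5 and 93.5 in controls and 82.1, 96.5, 85.8 and 90.0 in knockouts, and the groups overlapped (log2 difference -0.08, SE 0.08). Dnm1l itself, the dynamin-related GTPase that constricts the organelle, was at 21.8 ± 4.42 and 22.4 ± 2.83 (mean ± SD, n = 4 each). Fis1 stood at 216 ± 32.1 and 199 ± 22.8, Mief1 at 6.04 ± 0.438 and 6.16 ± 0.302, and Mief2 at 61.6 ± 3.68 and 63.9 ± 3.60. Mief2 shares its locus in the files with the microRNA gene Mir5100.

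Of the 7 protease genes, 3 were higher and 4 lower, none past the test. Spg7, a subunit of the matrix-facing AAA protease of the inner membrane, had the smallest p: it was at 53.9, 57.6, 60.2 and 52.0 in controls and at 50.4, 43.8, 58.3 and 44.4 in knockouts. Knockout 2 and knockout 4, both with Xist, were the lowest, knockout 1 also lay below every control, and knockout 3 lay within the control range. On the log2 scale it differed by -0.19 (SE 0.11), by -0.14 with Xist as a covariate, by -0.06 in the 5 libraries without Xist and by -0.04 without knockout 2 and knockout 4. Its partner subunit Afg3l2 was at 45.7 ± 3.51 and 44.1 ± 3.33. Oma1, the stress-activated protease of Opa1, was at 22.8 ± 1.82 and 24.5 ± 1.59 (log2 difference 0.10, SE 0.08). Yme1l1, which faces the space between the membranes, was at 16.3 ± 3.29 and 16.9 ± 4.43. In the matrix, Lonp1 was at 47.2 ± 3.80 and 46.3 ± 4.82, the peptidase Clpp at 41.9 ± 7.15 and 39.8 ± 7.10, and its unfoldase Clpx at 33.7 ± 5.53 and 34.5 ± 4.78 (mean ± SD, n = 4 each).

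In the fit without covariates the 3 matrix chaperones differed between genotypes by less than their standard errors. Hspd1, the chaperonin, had the smallest p of the 3, at 95.9, 71.7, 60.9 and 74.0 in controls and 58.7, 79.99, 65.5 and 71.3 in knockouts. Control 1 stood above all other libraries. Its log2 difference of -0.12 (SE 0.15) was -0.00439 without control 1 and -0.21 (SE 0.09) with Xist as a covariate. Its co-chaperonin Hspe1, from the shared start region printed above, was at 93.7 ± 6.69 and 94.7 ± 10.2, and control 1 did not stand out in the same way, at 99.9 against 98.7 in control 3. Hspa9 was at 244 ± 21.2 and 231 ± 23.3, with a log2 difference of -0.08 (SE 0.10), and -0.13 (SE 0.08) with Xist as a covariate. For these 3 genes the annotation names pseudogenes, 5 of Hspd1, 6 of Hspe1 and 1 of Hspa9, with which reads could be shared, so their levels are uncertain to that extent.

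In the outer membrane translocase 6 of 7 genes were lower and 1 higher in the knockout, with a median log2 difference of -0.08 and none past the test. Tomm7, a small subunit that tunes assembly of the complex, had the smallest p: it was at 103, 106, 129 and 98.7 in controls and 89.2, 91.8, 105 and 96.0 in knockouts. Control 3 was the highest, and knockout 3 lay within the control range. The log2 difference of -0.19 (SE 0.10) was -0.10 without control 3. Its locus in the files also holds 6 other listed genes, so its value is uncertain. The receptor Tomm22 was at 82.7 ± 2.12 and 78.1 ± 3.93 (log2 difference -0.08, SE 0.07), and turned to 0.00569 without scaling. The small subunits Tomm5 and Tomm6 were at 86.6 ± 5.89 and 82.5 ± 10.8, and at 58.2 ± 6.59 and 53.7 ± 7.195. Tomm6 shares its locus with Prickle4 and the antisense gene Tomm6os. Tomm20 was at 11.1 ± 0.473 and 10.7 ± 1.12, Tomm40 at 32.5 ± 1.92 and 34.0 ± 2.27, and Tomm70a at 22.7 ± 2.78 and 21.97 ± 5.41 (mean ± SD, n = 4 each). The log2 difference of Tomm70a was -0.07 (SE 0.17), and -0.18 (SE 0.09) with Xist as a covariate.

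Of the 4 small Tim genes only Timm8b, which works with Timm13 as a carrier of inner membrane precursors, stood at an unadjusted p under 0.05. It was at 381, 343, 439.6 and 357 scaled FPKM in controls and at 302, 315, 326 and 348 in knockouts. Knockout 4, at 348, lay above control 2, so the groups overlapped by that pair. The log2 difference was -0.23 (SE 0.10, 95% interval -0.45 to -0.00615; limma, unadjusted p = 0.0452, adjusted p = 0.373), and it was -0.07 once trends on length, base composition and level were taken out. The gene shares its locus in the files with AU019823 and Pih1d2. Its partner Timm13 was at 78.9 ± 9.49 in controls and 83.9 ± 11.2 in knockouts, the difference between these genes was not tested, and Timm13 shares its locus with Tmprss9. The other pair of small Tims, Timm9 and Timm10, was at 41.7 ± 4.81 and 42.0 ± 3.18, and at 76.5 ± 11.4 and 82.4 ± 12.1 (mean ± SD, n = 4 each). Timm9 shares its locus with Tomm20l.

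In the inner membrane translocases 4 of 5 genes were lower and 1 higher, none past the test. Of these, Timm17a and Timm50 stood at an unadjusted p under 0.05, as did 6.07% of all genes in the lower direction. Timm17a, which with Timm23 forms the channel for presequence proteins, was at 204, 209, 227 and 207 in controls and 170.5, 200.4, 176 and 175 in knockouts. Every knockout value lay below every control value, with knockout 2 closest to control 1. The log2 difference was -0.23 (SE 0.08, 95% interval -0.42 to -0.05; limma, unadjusted p = 0.0199, adjusted p = 0.272), from 212 ± 10.5 to 180.4 ± 13.5 (mean ± SD, n = 4 each). It was -0.24 with Xist as a covariate and -0.31 in the 5 libraries without Xist, with adjusted p-values of 0.168 and 0.333 (limma), and between -0.31 and -0.14 over all 19 alternatives. Timm50, the receptor of the TIM23 complex, was at 55.9, 55.4, 57.3 and 46.8 in controls and 46.2, 41.5, 52.1 and 43.2 in knockouts. Control 4 was low and knockout 3 high, so that the groups overlapped. Its log2 difference was -0.23 (SE 0.10, limma, adjusted p = 0.374), and -0.11 in the 5 libraries without Xist.

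Timm23, the other channel subunit, was at 42.2 ± 3.55 in controls and 38.1 ± 2.50 in knockouts. Its log2 difference was -0.14 (SE 0.09), -0.18 (SE 0.07) with Xist as a covariate (limma, adjusted p = 0.191) and -0.09 without control 1. Control 1, at 47.2, was its highest value and knockout 1, at 34.6, its lowest. Timm44, which docks Hspa9 at the channel, was at 67.3 ± 5.43 and 66.4 ± 3.51. Timm22, the channel for carrier proteins and the gene that varied least of the 38, was at 17.6 ± 0.553 and 18.5 ± 0.361 (log2 difference 0.07, SE 0.06; mean ± SD, n = 4 each).

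**Figure D3:**
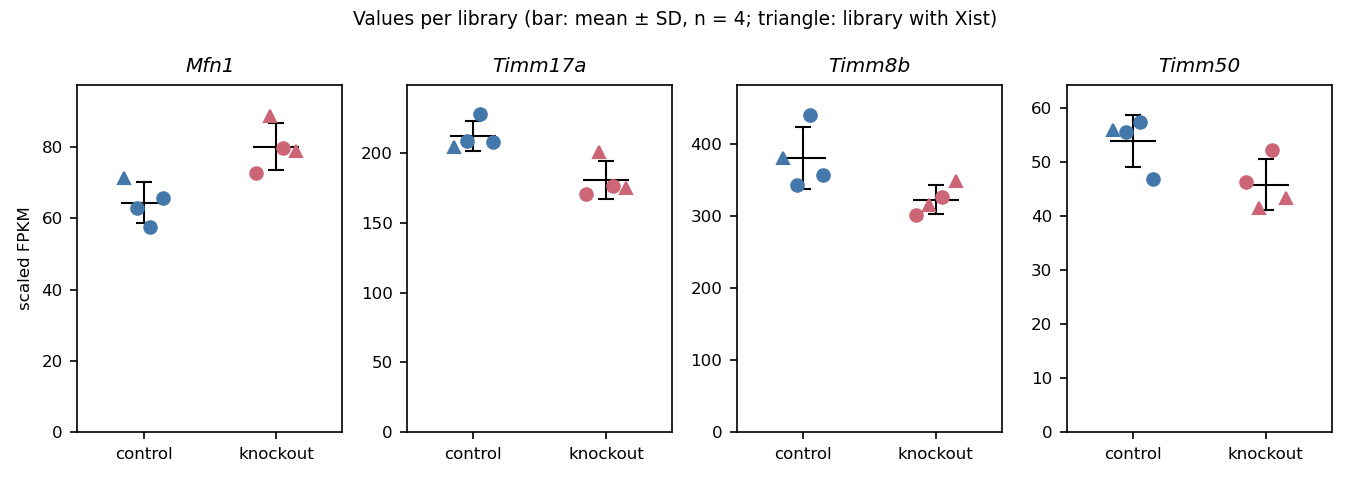
Scaled FPKM (y axis, from 0) of Mfn1, Timm17a, Timm8b and Timm50 in each control and knockout library, with bars for mean ± SD (n = 4) and triangles for the 3 libraries that hold Xist. The groups do not overlap for Mfn1 (57.5 to 71.3 against 72.6 to 88.6) and Timm17a (204 to 227 against 170.5 to 200.4), and overlap for the other genes.

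The sorting, cristae and prohibitin genes did not pass either, 2 of 4 lower. Phb, a scaffold of the inner membrane that holds the AAA proteases, had the smallest p of this role, at 47.4, 51.0, 54.3 and 50.6 in controls and 52.1, 40.0, 50.9 and 42.6 in knockouts. The low values were knockout 2 and knockout 4, and knockout 1 and knockout 3 lay within the control range. Its log2 difference of -0.14 (SE 0.10) turned to 0.0196 without knockout 2 and knockout 4. Samm50 was at 186 ± 12.6 and 183 ± 16.2, Immt at 187 ± 26.2 and 189.7 ± 16.2, and Chchd3 at 396 ± 34.3 and 398 ± 31.3 (mean ± SD, n = 4 each).

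The spread within the groups followed the libraries that hold Xist for part of the genes. In control 1, knockout 2 and knockout 4 together, 7 members (18.4%) lay above all other 5 libraries, against 11.4% of all genes tested, and 2 (5.26%) lay below, against 9.37%. These shares are descriptions of libraries told apart by their data and carry no test. The 7 were Opa1, Dnm1l, Yme1l1, Clpx, Hspe1, Tomm5 and Tomm70a, and the 2 were Tomm6 and Phb. Yme1l1 was at 20.4 in control 1, 20.96 in knockout 2 and 20.4 in knockout 4, while the others lay between 12.3 and 17.2. Opa1 was at 32.5, 29.6 and 27.6 and between 18.1 and 25.0. Tomm70a was at 26.5, 28.2 and 24.8 against 17.3 to 22.8.

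The difference between these libraries and the other 5 moved with the base composition of the transcripts. Across the 38 genes its Spearman correlation with the G and C content of the longest annotated transcript was -0.67, and with transcript length 0.33, where genes share the same 8 libraries and length and G and C content are themselves correlated (-0.42). Over 11042 tested genes with an annotated transcript the same correlations were -0.37 and 0.25. The 7 genes above had a G and C content of 38.05% to 47.2% and the 2 below of 55.5% and 55.8%. Clpp, at 57.8%, had the lowest log2 difference (-0.35), and its ranges overlapped. For the difference between genotypes the correlations across the 38 genes were -0.07 with G and C content and 0.15 with length. Whether base composition, sex or fibre type carries this arrangement was not tested.

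**Figure D4:**
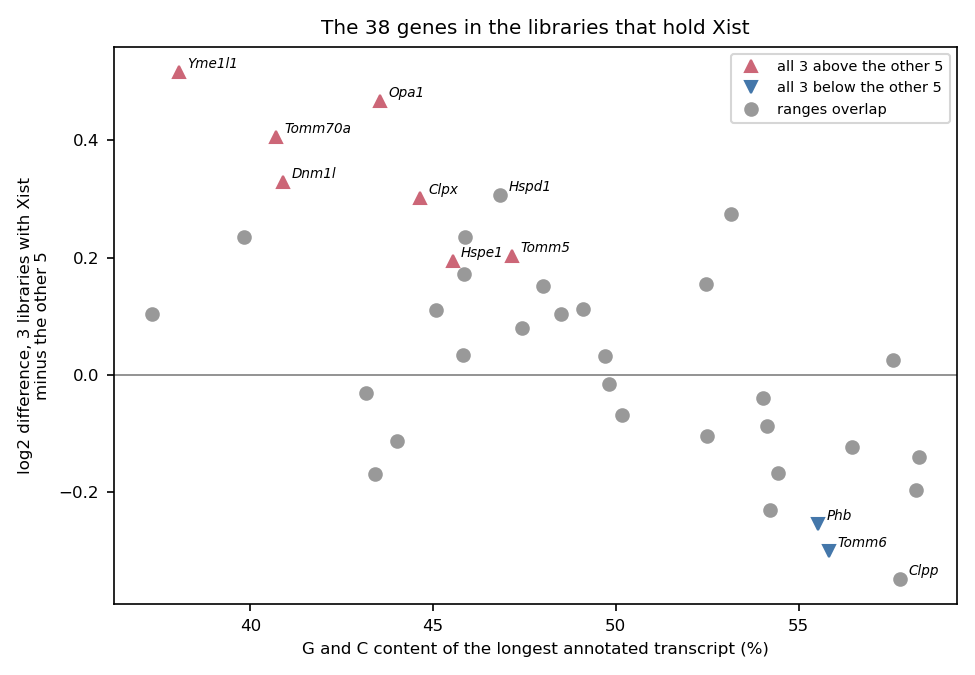
G and C content of the longest annotated transcript (x axis, %) against the mean log2 difference of the 3 libraries with Xist from the other 5 (y axis), with a point per gene for the 38 genes. The 7 genes whose 3 values lie above the other 5 have a G and C content of 38.05% to 47.2%, and the 2 whose values lie below have 55.5% and 55.8%.

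**Figure D5:**
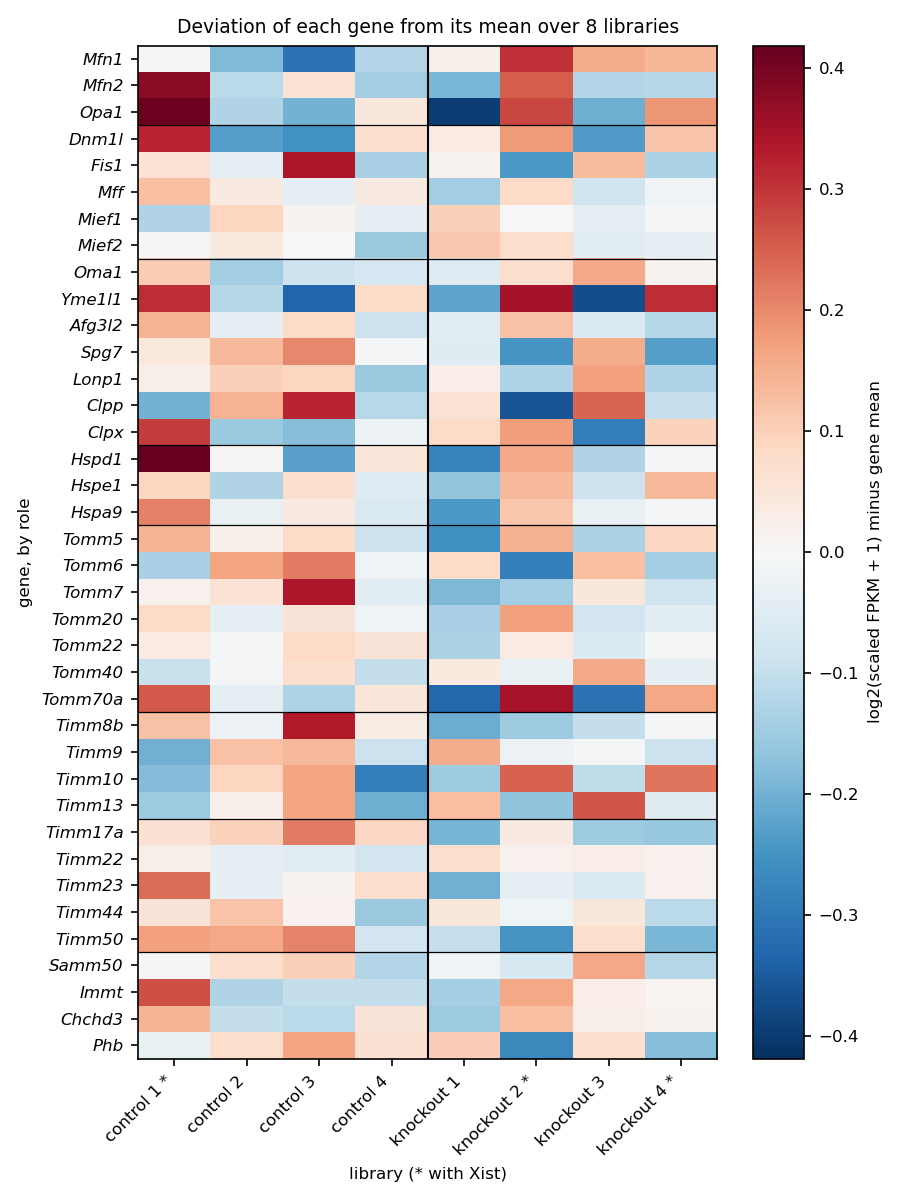
Deviation of log2(scaled FPKM + 1) from the gene's mean over 8 libraries (colour), for the 38 genes by role (rows) and the 8 libraries (columns, an asterisk marks those with Xist). Control 1 holds 28 of 38 genes above their own mean, and control 4 holds 12.

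The median deviation of the 38 genes from their means was 0.07 in control 1 and 0.07 in control 3, -0.00651 in control 2 and -0.06 in control 4. In the knockouts it was -0.07, 0.06, -0.04 and -0.01 in knockout 1 to 4. The groups overlapped, and the median over all genes stayed between -0.00786 and -0.000254 in every library. The map of deviations shows the fusion genes high in knockout 2 (median 0.28). In control 1 their median was 0.38, with Mfn2 and Opa1 high and Mfn1 at -0.00347. The chaperones were high in control 1 and knockout 2 too (medians 0.21 and 0.14), and lowest in knockout 1 (-0.24).

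Beyond the 38 genes, 86 further genes of these pathways and of the mitochondrial stress response were tested, and none passed in either direction, with 8 lower and 1 higher at an unadjusted p under 0.05 (limma), a level reached by 13.1% of all genes (6.07% lower, 7.03% higher). Of all 86, 57 were lower and 29 higher, with a median log2 difference of -0.07. Over all genes tested 50.5% were lower, with a median of -0.00210. For the 38 members this balance turned with the scaling, and for the 86 that was not tested. Among 28 further import genes, Pmpca, the catalytically silent subunit of the presequence-cleaving peptidase, was at 70.2 ± 1.74 in controls and 60.8 ± 2.21 in knockouts without overlap (log2 difference -0.21, SE 0.07; limma, adjusted p = 0.227). Of all genes tested 8.31% had no overlap, and the share among the 86 was not counted. The cytosolic chaperone Hsp90aa1, which delivers precursors to Tomm70a, was at 9.34 ± 1.19 and 11.9 ± 1.68 with overlap (log2 difference 0.32, SE 0.12; limma, adjusted p = 0.304).

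Among 22 further genes of dynamics, Gdap1, an outer membrane protein linked to fission, showed the largest difference described here. It was at 3.93, 12.4, 7.04 and 9.53 in controls and 1.60, 1.11, 3.95 and 1.79 in knockouts. Knockout 3, at 3.95, lay just above control 1, at 3.93, and the other knockouts below all controls. The log2 difference was -1.55 (SE 0.34; limma, adjusted p = 0.105), and -1.36 with Xist as a covariate, where it passed (limma, adjusted p = 0.0415). Gdap1 was the only one of the 86 to do so, in a fit that called 2.01% of all genes. It passed in no other of the 19 alternative settings, with adjusted p-values up to 0.304 (limma). Mtfr1l, a regulator of fission, was at 94.4 ± 8.81 and 76.0 ± 7.25 without overlap, though control 3 (86.368) and knockout 1 (86.358) nearly met. Its log2 difference of -0.31 (SE 0.10; limma, adjusted p = 0.222) was -0.16 in the 5 libraries without Xist. No gene of the 10 cristae genes or of the 15 further proteases and chaperones stood at an unadjusted p under 0.05. Chchd10, of the space between the membranes, was at 1215 ± 219 and 925 ± 227. Its lowest knockouts were knockout 2 at 695 and knockout 4 at 785 and its lowest control was control 1 at 946, the 3 libraries with Xist, and the log2 difference of -0.41 was -0.12 without knockout 2 and knockout 4. Minos1, of the cristae complex, was at 102 ± 6.34 and 91.5 ± 5.49, the disaggregase Clpb at 23.7 ± 2.33 and 20.7 ± 2.36, and the Hspa9 partner Dnaja3 at 59.8 ± 4.03 and 54.6 ± 2.20 (mean ± SD, n = 4 each).

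Of 11 tested genes of the mitochondrial stress response 7 were lower and 4 higher, with a median log2 difference of -0.18. The share lower over all genes tested was 50.5%, with a median of -0.00210. Atf5, a transcription factor of that response, was at 51.3, 70.7, 74.2 and 68.6 in controls and 53.7, 52.7, 56.2 and 52.8 in knockouts. Control 1 was the lowest of all 8, and the other controls lay above every knockout (log2 difference -0.28, SE 0.12; limma, adjusted p = 0.355). Asns, asparagine synthetase, was at 2.75 ± 0.392 and 1.77 ± 0.791 (mean ± SD, n = 4 each; log2 difference -0.48, SE 0.19; limma, adjusted p = 0.337). Its level was low, with knockout 1 at 1.01 and knockout 2 at 1.20, near the filter of 1 scaled FPKM. The groups overlapped, with knockout 3 at 2.66 above control 1 at 2.34 and control 2 at 2.52.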

How the data were processed

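Total RNA of snap-frozen tibialis anterior of 8 separate animals was extracted with Trizol and made into TruSeq libraries, per the labels' protocols. STAR, Cufflinks and mm10 are named in the submitters' processing notes; tool versions and annotation were not given in the sources used here. FPKM per gene were deposited by the authors as 1 Cufflinks table per library, per the file headers. Read counts are not given, so depth is unknown, no count model was used and no counting interval is given. Summed FPKM lay between 604428 and 681042. Cufflinks divides reads between overlapping genes by estimation. Left out were 23 genes, no member among them, whose Cufflinks status was not OK throughout, and 27 symbols turned into dates were given back their names through their positions in GENCODE M21 (mm10).

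Each library's FPKM were scaled by a median-of-ratios factor (0.904 to 1.07) and analysed as log2(scaled FPKM + 1), a scale that makes changes of low genes look smaller. A gene entered the test if 4 or more libraries held 1 scaled FPKM or more, using limma 3.58.1 in R 4.3.3 (lmFit, eBayes with a trend), with Benjamini-Hochberg adjustment over all 11096 genes and a threshold of 0.05. The fit was also run on simulated data with independent noise and changes of 1 log2 unit in either direction. Those changes exceed the difference of every member, so that run does not show how the fit performs at the members' differences. Python 3.11.15 was used for the rest. The rule for the members uses no measured value, but the members, lists and alternatives were chosen with earlier results of these data known. Values in every library are given for members without overlap and for the smallest p in each role. Members listed with a mean and SD, and genes whose values are shown for the libraries with Xist or for the largest difference, are further examples, part of them chosen after their values were seen. Timm8b and Timm50 are named for their unadjusted p. Alternatives were other pseudocounts, filters and normalizations, robust eBayes, trends removed by loess (span 0.5), the replicate number as a block, presence of Xist (at least 1 FPKM), and libraries left out.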

Additional observations from a re-analysis of the deposited data

Results flagged for a closer look

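In groups of 4 libraries, 3 of the 76 groups formed by the 38 genes had a library far from the other 3, judged by its gap to the nearest value as a share of the whole range (Dixon's 95% critical value). Chance flags about 1 in 20 groups. Immt in controls had control 1 at 226 scaled FPKM and the others at 172 to 175, a gap of 0.943 of the range. Mfn2 in knockouts had knockout 2 at 125 and the others at 91.7 to 96.5, a gap of 0.857. Timm22 in knockouts had knockout 1 at 19.1 and the others at 18.3 to 18.4, a gap of 0.82916. Control 1 and knockout 2 are among the 3 libraries that hold Xist, and the part of that in these values was not tested.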

How the results depend on the processing

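No member passed in any of the 19 alternatives, and Mfn1 had the smallest adjusted p, 0.0828, with trends removed. The members' median log2 difference was -0.05 and moved to 0.0381 without scaling, where the median of all genes was 0.07; leaving out 1 library gave -0.07 to -0.01. Without scaling Mff stood at 0.00694 and Tomm22 at 0.00569, and without knockout 2 and knockout 4 Phb stood at 0.0196; the cause was not tested. The sign of up to 14 of the 38 members changed in 1 setting, that without knockout 2 and knockout 4, and of 12 without scaling, 9 with Xist as a covariate and 6 with quantile normalization. Over all genes 40 passed, 22 higher and 18 lower. Without scaling it was 36 higher and 13 lower. The count was 223 with Xist as a covariate, 3 in the 5 libraries without Xist, 13 without knockout 2 and knockout 4, 15 at a mean of at least 5 scaled FPKM, 8 without a filter, and 2 to 27 when 1 library was left out. Of the 86 further pathway genes 0 passed when 1 library was left out, and 1 passed with Xist as a covariate, against 2.01% of all genes. Carm1 stood at -1.02 to -0.84 with 1 library left out, where 3 against 4 libraries cannot go below the exact permutation p of 0.0571 (2-sided) that each of these gave. With the replicate number as a block limma called 0 genes, 3 members standing at an unadjusted p under 0.05. Same-numbered libraries deviated from their group means with correlations of -0.43, -0.19, 0.35 and 0.19. The knockout that correlated best had the same number for control 3 and control 4, and another number for control 1 and control 2. So few correlations cannot settle whether the numbers pair the animals. Without read counts the precision of low genes such as Mief1 cannot be stated.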

Other observations

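The balance of the mitofusins is a ratio within each library, on which scaling between libraries has no bearing, and was chosen after its values were seen. Mfn1 relative to Mfn2 was 0.522, 0.648, 0.526 and 0.693 in control 1 to 4 and 0.792, 0.707, 0.827 and 0.817 in knockout 1 to 4. Every knockout ratio lay above every control ratio, with means of 0.597 ± 0.0865 and 0.786 ± 0.0545 (SD, n = 4 each), and control 4 and knockout 2 were the closest pair. Of the 703 ratios that the 38 genes can form, 50 (7.11%) had no overlap between the groups. Mfn1 relative to another member was higher in every knockout than in every control for 20 of 37 partners. These 20 are among the 50. Mfn1 itself had no overlap and the smallest p of the members, so its ratios are not separate evidence. A ratio shows unequal change and not which of the genes moved.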
